A study of Mus musculus with 7 samples.

Results

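Eosinophil ribonucleases and other genes that mark eosinophils were followed in whole-spleen RNA, as 9 gene symbols matched to the rows of a table of 22173 genes. The symbols were the eosinophil-associated ribonuclease genes Ear1, Ear2, Ear6 and Ear10, the granule protein genes Epx, Prg2 and Prg3, and the receptor genes Ccr3 and Il5ra. They were selected on their FPKM values in the same comparison of sHA-X with PBS libraries. Those values, and the calls of any fit made on them, are therefore a description and give no independent support. The study measured messenger RNA by RNA sequencing in 7 mouse spleen libraries. In 4 of them the spleen had been remodelled by 4 injections of the biomaterial sHA-X (named so in the labels), and in 3 it had been given phosphate-buffered saline (PBS). All 7 spleens, PBS included, had received an injection of hepatocytes, the main cells of the liver, and were taken 30 days later. The strain, age and sex of the mice, the source of the hepatocytes and how often PBS was given are not stated in the sources used here. Levels are in FPKM, which divides a gene's fragments by its transcript length and by the size of the library, and errors are SDs over the 3 PBS or the 4 sHA-X libraries.

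Eosinophils are granulocytes that mature in the bone marrow under interleukin 5, circulate, and settle in tissues that include the spleen. Their granules hold a peroxidase, major basic proteins and small secreted ribonucleases that can kill parasites and damage host cells. In the mouse these ribonucleases come from a family of closely related Ear genes, of which some are also expressed by other myeloid cells, such as alveolar macrophages and circulating monocytes that express little Ly6C. In RNA from a whole organ, fewer cells of a type and less RNA per cell cannot be told apart.

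The Ear genes lie together on chromosome 14 and resemble each other, which bears on every value below. On GRCm38 (mm10), Ear1 (NCBI gene 13586) spans 43818765 to 43819639, Ear10 (93725) spans 43922898 to 43923596 and Ear2 (13587) spans 44102654 to 44103531, so that Ear1 and Ear2 are 283.0 kb apart, while Ear6 (93719) lies 7.75 Mb further on, at 51853768 to 51854643. The coding sequences of Ear1 and Ear2 were 95.1% identical, those of Ear2 and Ear10 97.0% and those of Ear1 and Ear6 87.4%. Of all 50-base windows of the Ear1 transcript, 23.8% also occurred in the Ear2 transcript and 1.36% in that of Ear6. Reads from shared windows cannot be assigned to either gene, and the sources used here do not say how they were counted. Ear1 and Ear2 are therefore uncertain as single genes, and beside them Ear6 is less so. Sequences were compared only among the Ear genes of the set. How close Ear6 or the others are to further Ear genes, with or without a row in the table, was not checked. The promoters of the Ear genes with reads in every library, from 250 bases before the start to 50 after it, are printed because genes with almost the same promoter differed in their values. The sequences are those of RefSeq on GRCm38.p6, 5′ to 3′ on the strand of the gene, with capitals for matches to CCAAT and to GATAA on either strand.
Ear1, chr14:43819590-43819889, minus strand: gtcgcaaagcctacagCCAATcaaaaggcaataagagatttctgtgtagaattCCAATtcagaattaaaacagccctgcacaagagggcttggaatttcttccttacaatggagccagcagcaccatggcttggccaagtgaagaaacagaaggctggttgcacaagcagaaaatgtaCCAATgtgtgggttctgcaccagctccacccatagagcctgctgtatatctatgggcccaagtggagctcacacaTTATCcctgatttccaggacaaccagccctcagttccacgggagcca
Ear2, chr14:44102404-44102703, plus strand: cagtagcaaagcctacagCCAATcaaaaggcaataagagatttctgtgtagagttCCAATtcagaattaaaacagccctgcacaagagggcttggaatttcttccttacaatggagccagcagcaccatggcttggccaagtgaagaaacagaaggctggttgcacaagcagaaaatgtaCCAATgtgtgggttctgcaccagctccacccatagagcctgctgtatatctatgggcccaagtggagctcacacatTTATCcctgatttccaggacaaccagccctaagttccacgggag
Ear6, chr14:51853518-51853817, plus strand: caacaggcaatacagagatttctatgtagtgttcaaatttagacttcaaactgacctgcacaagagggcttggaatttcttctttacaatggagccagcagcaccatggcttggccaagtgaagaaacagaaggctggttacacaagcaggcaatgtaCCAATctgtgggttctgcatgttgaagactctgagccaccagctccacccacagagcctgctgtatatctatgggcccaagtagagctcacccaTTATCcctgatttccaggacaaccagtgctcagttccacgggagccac
The promoters of Ear1 and Ear2 were 97.0% identical, with 3 mismatches and 6 gap bases, and those of Ear1 and Ear6 were 80.7% identical. RefSeq promoters were found for 8 of the 9 genes. Searched on both strands, the CCAAT box (CCAAT) had 3 matches in Ear1, 3 in Ear2 and 1 in Ear6, and it occurred in 37.4% of 32851 promoters of the same length. The core recognised by GATA factors (GATAA) had 1 match in each of the printed promoters, on the strand opposite to the gene and just after the start, and occurred in 25.4% of promoters. A C/EBP motif (TTGCNNAA, 10.8% of promoters) had 1 match each in Ear1 and Ear2 and none in Ear6. A PU.1 motif (GAGGAAG, 13.6%) and a TATA box (TATAAA, 13.6%) had no match in the printed windows. No matches overlapped each other.

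The libraries held between 29516830 and 37108844 reads, as recovered from the deposited values. In each library, every gene of the set but Ear10 had between 257 and 7722 reads, for which counting error alone is at most 6.24% of the value. The tissue matched its label: Cd79a, Cd3e and the red pulp macrophage gene Spic were present in all 7 libraries. Genes of pancreatic acinar cells summed to 913.2 FPKM in PBS replicate 2 and to at most 35.2 FPKM elsewhere. Genes of skeletal muscle summed to 159.0 FPKM in sHA-X replicate 2 and to at most 10.01 FPKM elsewhere. A list of 6 hepatocyte genes summed to 634.4 and 665.7 FPKM in replicates 3 and 4 of sHA-X, and to at most 20.4 FPKM elsewhere.

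Among the ribonucleases, Ear1 and Ear6 were lower in every sHA-X library than in any PBS library, whereas Ear2 overlapped between the groups. Ear1 was 63.03, 41.8 and 38.02 FPKM in PBS replicates 1 to 3. In sHA-X replicates 1 to 4 it was 17.4, 25.01, 14.9 and 22.0 FPKM. The means were 47.6 ± 13.5 and 19.8 ± 4.53 FPKM, so that the sHA-X mean was 0.417 of the PBS mean, and the highest sHA-X library stood below the lowest PBS library. Ear6 was 61.6, 48.9 and 34.3 FPKM in the PBS libraries, and 11.3, 21.7, 14.1 and 22.0 FPKM in the sHA-X libraries. Its means were 48.3 ± 13.7 and 17.3 ± 5.41 FPKM, a ratio of 0.358, and again the groups did not overlap. In sHA-X replicate 4 Ear1 and Ear6 had the same number of reads, 585 each. Ear2, the most abundant ribonuclease of the set, was 89.7, 80.7 and 72.0 FPKM in PBS. In sHA-X it was 67.7, 71.2, 79.2 and 80.4 FPKM. The PBS mean was 80.8 ± 8.88 FPKM and the sHA-X mean 74.6 ± 6.15 FPKM, a ratio of 0.924, and only sHA-X replicates 1 and 2 stood below all PBS libraries. Ear10 was listed at 0.0445 FPKM in PBS replicate 1, which is about 1 read for its 678-base transcript, and at 0 in the other 6 libraries. A count of 0 allows up to 3 reads, or 0.119 to 0.150 FPKM for this gene, by counting error alone. Both groups are under that limit and no fold is given. Ear14, the remaining row of the table named as an Ear gene, was listed at 0 in all 7 libraries, which allows up to 0.107 FPKM.

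The granule protein genes were lower in every sHA-X library than in any PBS library, by about the same factor. Epx (NCBI gene 13861, chromosome 11, 87863997 to 87875536) encodes eosinophil peroxidase, which makes hypohalous acids. It was 12.9, 10.1 and 7.87 FPKM in the PBS libraries and 3.88, 6.27, 3.58 and 5.80 FPKM in the sHA-X libraries. The means were 10.3 ± 2.51 and 4.88 ± 1.35 FPKM, a ratio of 0.476. Prg2 (NCBI gene 19074, chromosome 2, 84980461 to 84983632), which encodes the major basic protein of the granule core, had the highest level of the set. It was 255.3, 197.3 and 160.2 FPKM in the PBS libraries, and 84.9, 132.7, 81.0 and 140.2 FPKM in the sHA-X libraries. Its means were 204.3 ± 48.0 and 109.7 ± 31.1 FPKM, a ratio of 0.537, with sHA-X replicates 2 and 4 nearest to PBS. Prg3 (NCBI gene 53856, 84988196 to 84996559), the gene of a second major basic protein, lies 4.56 kb from Prg2. It was 14.6, 14.0 and 12.7 FPKM in the PBS libraries and 7.48, 6.26, 7.04 and 6.42 FPKM in the sHA-X libraries, with means of 13.8 ± 0.970 and 6.80 ± 0.563 FPKM and a ratio of 0.494. The spread of Prg3 within each group was small beside the gap between the groups.

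The receptor genes went in opposite directions. Il5ra (NCBI gene 16192, chromosome 6, 106710375 to 106749037) encodes the chain that binds interleukin 5, the main growth and survival factor of eosinophils, and is also expressed by B-1 cells. It was 6.49, 5.51 and 7.02 FPKM in the PBS libraries and 2.72, 2.63, 3.00 and 2.70 FPKM in the sHA-X libraries. The means were 6.34 ± 0.766 and 2.76 ± 0.165 FPKM, a ratio of 0.436, and the 4 sHA-X libraries lay close together and far below PBS. Ccr3 (NCBI gene 12771, chromosome 9, 124017825 to 124031692) encodes the eotaxin receptor, by which eosinophils home to tissue, and is also known from basophils. It was 21.5, 16.1 and 25.03 FPKM in the PBS libraries and 25.2, 32.1, 27.7 and 37.7 FPKM in the sHA-X libraries. The means were 20.9 ± 4.51 and 30.7 ± 5.48 FPKM, a ratio of 1.47, and the groups stood apart by little, with PBS replicate 3 just under sHA-X replicate 1.

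**Figure D1:**
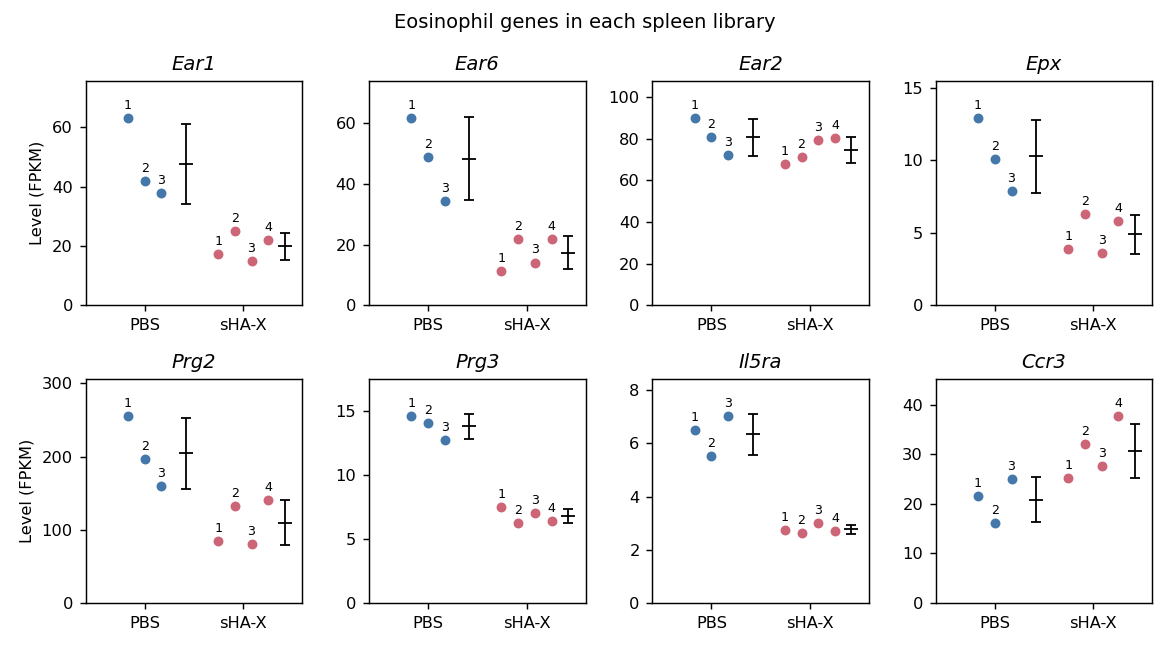
FPKM (vertical axes, each from 0) of the 8 genes with reads in every library, with a point for each PBS (blue) and sHA-X (red) library numbered by replicate, and the group mean ± SD beside the points. Ear1, Ear6, Epx, Prg2, Prg3 and Il5ra stand lower in all 4 sHA-X libraries than in any PBS library, Ear2 overlaps and Ccr3 stands higher.

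A fit across the whole table gives the background to these values. With limma on log2(FPKM + 1), 600 of 11920 genes tested were lower and 1108 higher in sHA-X at a Benjamini-Hochberg adjusted p under 0.05. With median-of-ratios scaling between libraries these counts were 843 lower and 1002 higher. Of the 9 genes 8 passed the filter of a mean of at least 1 FPKM over the libraries, each of them with a mean above 1 FPKM in both groups, and Ear10 did not. Past the threshold were 5 lower genes, Ear1, Ear6, Epx, Prg3 and Il5ra, where 5.03% of all genes tested were called lower. None was called higher by limma, where the background was 9.30%, although Ccr3 had an unadjusted p under 0.05. By limma-voom on the recovered reads the counts were also 5 lower and 0 higher, against 5.62% and 8.98% of genes. Prg2 and Ear2 were not called by either fit. Prg2 also had an unadjusted p under 0.05 by limma. The adjusted p by limma was 0.071 for Prg2, 0.090 for Ccr3 and 0.47 for Ear2. Every sHA-X library was below every PBS library for 6 of the 8 genes, against 11.5% of all genes tested, and above for 1, against 17.2%. A sHA-X mean of at most 0.5 of the PBS mean was seen in 64 of all genes tested, or 0.537%, Ear1, Ear6, Epx, Prg3 and Il5ra among them. Since the same contrast had been seen when the genes were chosen, nothing is read from these counts. With a library omitted from the fit, the number called lower was 2 when it was the second of PBS or the first of sHA-X, 3 when it was the first of PBS or the third of sHA-X, and 4 when it was the last of sHA-X. Omitting the acinar and the muscle library together, which are the second of each group, also left 2. The calls of Prg3 and Il5ra were kept under all alternatives run, whereas Ear1, Ear6 and Epx each lost theirs in some, and Ccr3 was called higher only without PBS replicate 3. These fits reuse the values on which the genes were chosen, so kept and lost calls are likewise only described.

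Within each group, Ear1, Ear6, Epx and Prg2 deviated together in both groups. In PBS, replicate 1 stood at 1.25 to 1.32 times the group mean for these 4 genes and replicate 3 at 0.710 to 0.799 times. In sHA-X, replicates 2 and 4 stood at 1.11 to 1.28 times the group mean and replicates 1 and 3 at 0.654 to 0.877 times. Prg3 and Il5ra kept within 0.869 to 1.11 times their group means in all 7 libraries, and in sHA-X Prg3 was highest in replicate 1 and Il5ra in replicate 3, although in PBS Prg3 also had the order of replicates 1, 2 and 3 from high to low. Ear2 was between 0.891 and 1.11 times its group means, with the same order in PBS and with sHA-X replicates 3 and 4 above 1. Ccr3 was highest in sHA-X replicates 4 and 2, like the 4 genes above, but in PBS it was highest in replicate 3. The coefficient of variation in sHA-X was 22.8% for Ear1, 31.3% for Ear6, 27.7% for Epx and 28.3% for Prg2, against 8.27% for Prg3, 8.25% for Ear2 and 5.98% for Il5ra. Markers of neutrophils and granulocyte precursors also had their highest sums in sHA-X replicates 2 and 4, with 3568, 5651, 4014 and 4805 FPKM in replicates 1 to 4 of that group and 3489, 3446 and 2043 FPKM in PBS. Among the sHA-X libraries, T cell genes and both monocyte lists also had their highest sums in replicates 2 and 4, and erythroid genes their lowest. In sHA-X replicates 1 to 4 the T cell sums were 128.7, 167.6, 133.3 and 179.1 FPKM and the erythroid sums 1860, 1198, 2009 and 1260 FPKM. In PBS these lists went the other way. PBS replicate 3, where the 4 genes were lowest, had the highest T cell and monocyte sums of its group and the lowest erythroid sum. In PBS replicates 1 to 3 the T cell sums were 165.0, 167.8 and 221.8 FPKM and the erythroid sums 2455, 2846 and 757.0 FPKM. The part of these cell types in the values of Ear1, Ear6, Epx and Prg2 was not tested.

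**Figure D2:**
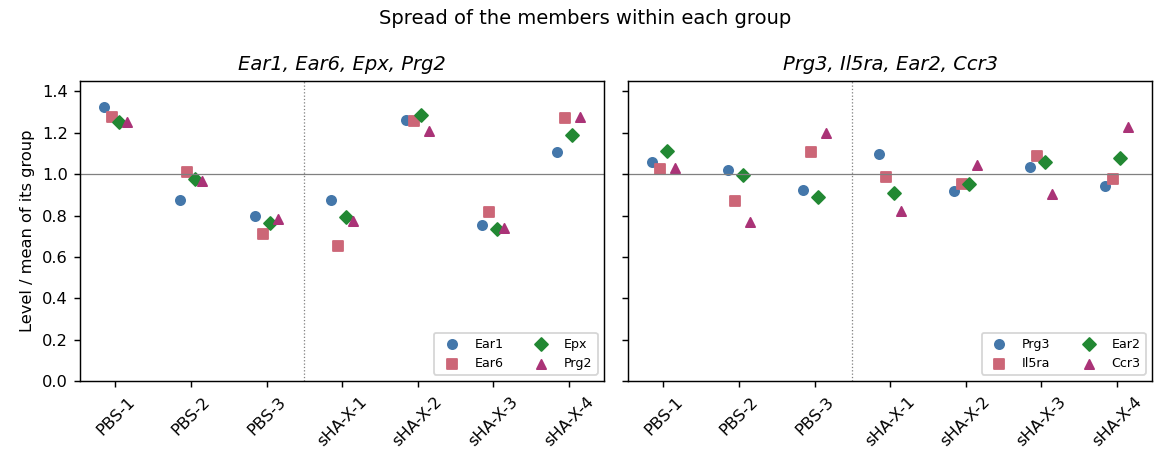
Level of each gene divided by the mean of its group (vertical axis) in the 7 libraries (horizontal axis), with a grey line at 1 and a dotted line between the groups. The 4 genes on the left lie above 1 in PBS-1, sHA-X-2 and sHA-X-4 and below 1 in PBS-3, sHA-X-1 and sHA-X-3, and those on the right match them in at most 1 of the groups.

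Ratios between the genes in a library show which of them kept their proportions. The ratio of Ear1 to Epx was 4.90, 4.16 and 4.83 with PBS, against 4.48, 3.99, 4.17 and 3.79 with sHA-X, so that the groups overlapped. Ear1 relative to Prg2 was 0.232 ± 0.0182 with PBS and 0.184 ± 0.0199 with sHA-X, lower in every sHA-X library. The ratio of Prg2 to Epx stayed between 19.6 and 20.4 with PBS and between 21.2 and 24.2 with sHA-X, so that the groups stood slightly apart. Ear6 relative to Epx was 4.67 ± 0.274 with PBS and 3.52 ± 0.456 with sHA-X, lower in every sHA-X library. The ratio of Il5ra to Prg3 was 0.445, 0.393 and 0.554 with PBS, against 0.364, 0.419, 0.427 and 0.420 with sHA-X, and these also overlapped. Ear1 relative to Ear2 went from 0.583 ± 0.104 in PBS to 0.268 ± 0.0668 in sHA-X, and Ear6 relative to Ear2 from 0.590 ± 0.106 to 0.231 ± 0.0688, in both cases with no overlap. Ear2 therefore made up 46.3% ± 4.08 of the summed Ear FPKM in the PBS libraries and 67.1% ± 5.71 in sHA-X. The sum itself was 176.7 ± 35.4 FPKM in the PBS libraries and 111.7 ± 12.2 FPKM in the sHA-X libraries. The ratio of Ccr3 to Il5ra did not overlap either, with 3.26 ± 0.328 in PBS and 11.2 ± 2.34 in sHA-X.

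**Figure D3:**
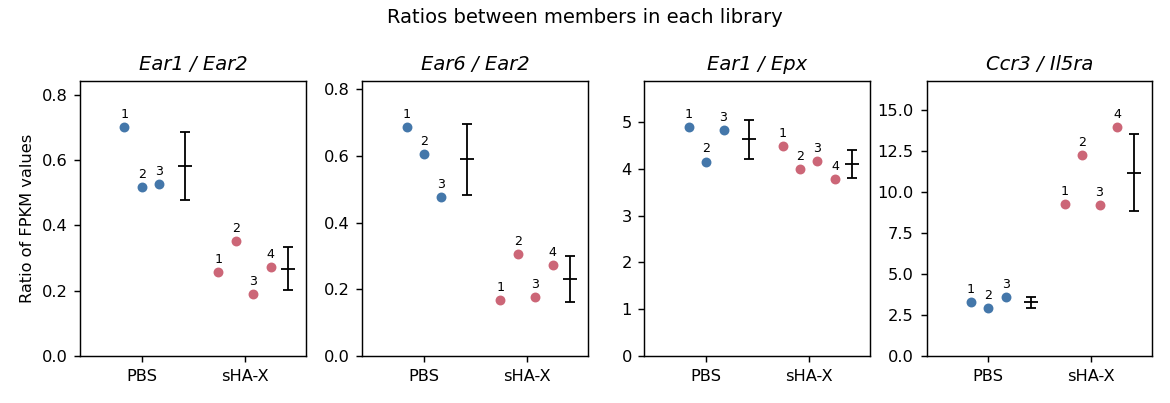
Ratio of the FPKM values of gene pairs (vertical axes, each from 0) in each library, numbered by replicate, with the group mean ± SD beside the points. Ear1 / Ear2 and Ear6 / Ear2 are lower in every sHA-X library, Ear1 / Epx overlaps between the groups, and Ccr3 / Il5ra is higher in every sHA-X library.

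On this length-scaled level, the order in PBS was Prg2, Ear2, Ear6, Ear1, Ccr3, Prg3, Epx, Il5ra and Ear10. The ranges of Ear6 and Ear1 overlapped, as did those of Prg3 and Epx, and all other neighbours stood apart. In sHA-X the order was Prg2, Ear2, Ccr3, Ear1, Ear6, Prg3, Epx, Il5ra and Ear10, with overlap again only between Ear1 and Ear6 and between Prg3 and Epx. Ccr3 was thus above both Ear1 and Ear6 in all 4 sHA-X libraries and below both in all 3 PBS libraries.

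Cytokine and chemokine genes that act on eosinophils included some that rose. For this and every list below, the background by limma is 9.30% of all genes tested called higher and 5.03% called lower. In a list of 15 cytokines and chemokines that act on eosinophils or their precursors in mouse or human, 5 of the 8 tested members rose and 3 did not pass (limma). None fell, at an unadjusted p under 0.05 or by limma-voom either. Ccl11, the eotaxin that binds Ccr3, was 0.608, 0.525 and 0.668 FPKM in the PBS libraries and 5.11, 2.67, 3.29 and 2.62 FPKM in the sHA-X libraries (adjusted p = 0.0021 by limma), and every sHA-X library stood above PBS. Il33, an alarmin of type 2 responses, rose from 7.86 ± 0.887 to 17.7 ± 4.58 FPKM (adjusted p = 0.015), which did not pass when PBS replicate 1 or 2 was omitted (adjusted p up to 0.068). Ccl3, Ccl7 and Ccl8 also rose, of which Ccl3 lost its call without PBS replicate 1 or 2 and Ccl7 in 6 of the 7 fits with 1 library left out. Of the 5 that rose, 4 had a PBS mean under 1 FPKM and entered the test through their sHA-X values, and without the filter 5 of 11 rose. Ccl24, the second eotaxin of the mouse, was 2.70 ± 1.21 FPKM in the PBS libraries and 2.12 ± 0.399 FPKM in the sHA-X libraries (adjusted p = 0.55). Il5 itself was listed at 0 in 6 libraries and at 0.0195 FPKM, about 1 read, in sHA-X replicate 3, where a count of 0 allows up to 0.0661 FPKM. Il13, Il3 and Il25 were listed at 0 throughout.

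Of 17 further receptors and adhesion molecules that eosinophils share with other myeloid cells, 9 of the 15 tested rose, 1 fell and 5 did not pass (limma), with a median log2 change of 0.39, against 0.03 over all genes. Csf2rb, the signalling chain that pairs with the interleukin 5 receptor, was 21.5, 22.4 and 24.9 FPKM in the PBS libraries and 32.8, 28.8, 30.8 and 31.7 FPKM in the sHA-X libraries (adjusted p = 0.0064 by limma). It thus stood higher in every sHA-X library, where the ligand-binding chain Il5ra stood lower. The complement receptors C5ar1 (2.37 ± 0.169 to 6.79 ± 0.479 FPKM) and C3ar1, which entered the test through its sHA-X values (PBS mean 0.306 FPKM), and the chemokine receptor Ccr1 (6.27 ± 0.462 to 10.4 ± 0.723 FPKM) also rose. Il3ra and Adgre1 were among those that rose, but failed in 5 of the 7 fits that omit a library. Itga4, an integrin chain used in homing, fell, a call lost without PBS replicate 1 (adjusted p = 0.060). Siglecf, a defining surface marker of mouse eosinophils, was 1.36, 0.932 and 1.30 FPKM in the PBS libraries and 1.21, 0.670, 1.09 and 0.592 FPKM in the sHA-X libraries, which overlapped (adjusted p = 0.33 by limma). Among 11 transcription factors of the lineage 2 rose, Xbp1 and Gata2, whose calls failed in 5 and 6 of the 7 fits that omit a library. None fell by limma or by limma-voom, and 1 was lower at an unadjusted p under 0.05. Of 8 tested enzymes 1 fell, the oxidase subunit gene Ncf4 (call lost in 6 of 7 fits), and none rose by limma, by limma-voom or at an unadjusted p under 0.05. Alox15, a lipoxygenase gene of eosinophils and resident macrophages, was under the filter and was looked at after its values were seen. It was 0.839, 0.673 and 0.696 FPKM in the PBS libraries and 0.365, 0.474, 0.309 and 0.317 FPKM in the sHA-X libraries. Over these 4 lists together 16 of 42 tested genes rose, 5 of them with a PBS mean under 1 FPKM, and 2 fell. Without PBS replicate 1, 9 and 0 were left, and without PBS replicate 2, 9 and 1. Of all genes tested 9.30% were called higher and 5.03% lower, and the number that fell is near that share.

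Lists for other cell types that express some of the 9 genes moved in different directions, beside 9.30% of all genes called higher and 5.03% called lower. Of 15 genes of Ly6C-low monocytes, which express Ear2, Treml4 rose, Cd36 and Nr4a1 fell and 12 did not pass (limma), with a median log2 change of -0.02 and sums of 422.1 to 489.6 FPKM in the PBS libraries and 433.2 to 501.7 FPKM in the sHA-X libraries. The calls of Treml4 and Nr4a1 were each lost in 5 of the 7 fits with 1 library left out. Of 13 B cell and B-1 cell genes, 7 fell, Fcer2a, Ms4a1 and Cd79b first among them, and 6 did not pass (none rose, by limma-voom or at an unadjusted p under 0.05 either). Their median log2 change was -0.38, and their sums were 1817 to 2168 FPKM in the PBS libraries and 1270 to 1435 FPKM in the sHA-X libraries. Bhlhe41 and Zbtb32 of this list were among those not called. The ranges of both overlapped between the groups, and their sHA-X means were 0.880 and 0.885 of their PBS means. Plac8 of the same list was among those that fell, with a log2 change of -0.38 (adjusted p = 0.0070 by limma). Its call was kept whichever library was omitted. The list does not separate B-1 cells from other B cells, and the part of either in the value of Il5ra was not tested. Of 6 tested basophil genes Hdc, Fcer1a, Cpa3 and Gata2 rose, Fcer1a with a PBS mean under 1 FPKM. Mcpt8 and Prss34 were not called, and Ms4a2, Cd200r3 and Il4 were under the filter. The sHA-X mean of Prss34 was 0.716 of its PBS mean, with overlapping ranges (adjusted p = 0.27 by limma). For Ms4a2, Cd200r3 and Il4 this ratio was 0.843, 0.766 and 0.763, also with overlap. Hdc alone went from 4.02 ± 0.385 FPKM in PBS to 12.2 ± 3.34 FPKM in sHA-X, the largest part of the rise in the list's sums. Cpa3 and Gata2 failed in 5 and 6 of the 7 fits that omit a library, and the list's sums were 16.6 to 19.5 FPKM in the PBS libraries and 25.6 to 30.9 FPKM in the sHA-X libraries. Mcpt8, a protease gene restricted to basophils, was 3.15, 3.69 and 2.49 FPKM in the PBS libraries and 1.79, 3.17, 3.64 and 3.13 FPKM in the sHA-X libraries, with overlap (adjusted p = 0.82 by limma). Of 5 tested mast cell genes, Tpsb2, Mcpt4, Cma1 and Cpa3 rose, or 2 to 4 with a library omitted. Kit, the remaining tested gene, went the other way without being called. Its sHA-X mean was 0.858 of its PBS mean, with overlapping ranges (unadjusted p = 0.045 and adjusted p = 0.16 by limma). Tpsb2 and Mcpt4 had PBS means under 1 FPKM and entered the test through their sHA-X values, and Cma1 failed when PBS replicate 1 or 2 was omitted (highest adjusted p = 0.070 by limma). The list had sums of 13.8 to 17.0 FPKM in the PBS libraries and 20.7 to 24.9 FPKM in the sHA-X libraries. The part of basophils and mast cells in the value of Ccr3 was not tested.

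**Figure D4:**
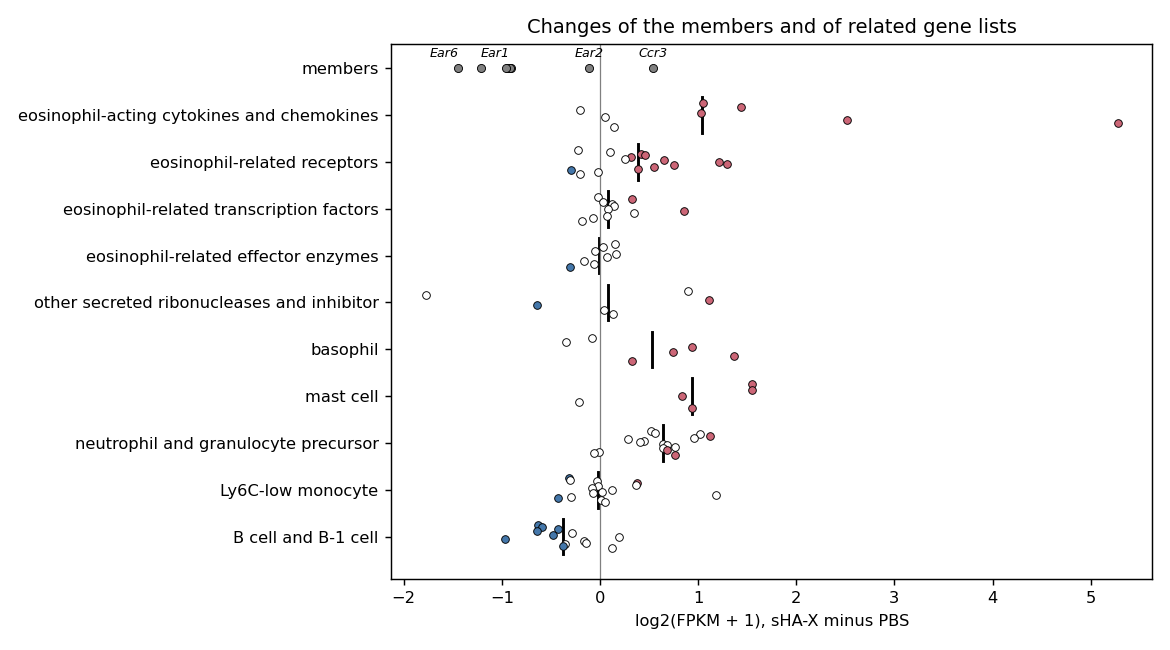
Change of each tested gene (horizontal axis, log2(FPKM + 1), sHA-X minus PBS) for the 8 tested eosinophil genes in grey and for related lists, with red for genes called higher, blue for genes called lower, white for genes not called and a black bar at the median of each list. Ear1, Ear6, Epx, Prg2, Prg3 and Il5ra lie well below 0, and 4 of the 5 red cytokine genes had a PBS mean under 1 FPKM.

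The neutrophil and granulocyte precursor list had 3 of 16 genes called higher, Cxcr2, Mmp9 and Ctsg, and a median log2 change of 0.64. Ctsg failed when sHA-X replicate 2, 3 or 4 was omitted (highest adjusted p = 0.059 by limma). At an unadjusted p under 0.05 the count of higher genes was 10. The share of all genes at that threshold was not determined, and the 9.30% called at an adjusted p is not its background. All 9 red pulp macrophage genes rose (7 to 9 with a library omitted), Cd5l, C1qa, Hmox1 and Slc40a1 first among them. Of 8 tested genes of Ly6C-high monocytes F13a1 and Ly6c2 rose and of 5 tested T cell genes Cd8a fell, the calls of Ly6c2 and Cd8a failing in 6 and 5 of the fits that omit a library. No erythroid, acinar, muscle, hepatocyte or adipocyte gene was called by limma, by limma-voom or at an unadjusted p under 0.05.

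Other secreted ribonucleases did not share a direction. Of 6 tested genes of that list, which includes the ribonuclease inhibitor Rnh1, 1 rose, 1 fell and 4 did not pass. Rnase6 was 51.3, 48.3 and 59.7 FPKM in the PBS libraries and 33.0, 35.7, 29.9 and 35.5 FPKM in the sHA-X libraries (adjusted p = 0.0034 by limma). Rnase4 was 12.7, 8.56 and 12.5 FPKM in the PBS libraries and 23.3, 24.0, 28.0 and 25.2 FPKM in the sHA-X libraries (adjusted p = 0.0019). Rnase1, the pancreatic ribonuclease, was listed at 39.0 FPKM in PBS replicate 2, the library with acinar genes, and at 0 in the other 6. Outside the set, the 3 tested genes whose profile over the 7 libraries was nearest to that of the summed Ear genes were Gm614, Ccndbp1 and Cdh24, by the root mean square difference of centred log2(FPKM + 1) values (0.13, 0.14 and 0.14). Ccndbp1 was 60.1, 55.9 and 39.9 FPKM in the PBS libraries and 35.1, 35.6, 37.6 and 38.7 FPKM in the sHA-X libraries.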

How the data were processed

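Whole-spleen RNA was sequenced in 7 libraries, 3 PBS and 4 sHA-X, grouped by their titles. TRIzol was used for total RNA and the VAHTS Universal V6 kit for the libraries, per the labels' protocols. The sources used here do not say whether strand was kept. The submitters' processing notes list fastp, HISAT2, HTSeq, DESeq2, R 3.2.0 and mm10, but not what each was used for. No unit is named in the deposited table. Its values were read as FPKM made by the authors, because within a gene they are whole multiples of a step in a fixed ratio between libraries. A value was called whole within 0.05 of a read, and this recovered reads for 100.0% of the 16889 genes above 0 in at least 2 libraries. The recovered totals were 29516830 to 37108844 reads, a 1.26-fold range. Total and step ratios differed by at most 0.092%. Intervals and limits at 0 cover counting error only.

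Genes with a mean of at least 1 FPKM were compared on log2(FPKM + 1) by limma 3.58.1 in R 4.3.3, with a mean-variance trend, robust variance, no covariate and Benjamini-Hochberg adjustment over all 11920 genes, since the values were not raw counts. Changes of low genes are understated on this scale. Separate animals are not stated for the libraries, so the p-values cover the spread between libraries, which may be technical. The fit and the read recovery were tested on simulated data. Alternatives were another pseudocount, other filters, another scaling, simpler variance models, each library left out, both second libraries left out, a replicate block and limma-voom on recovered reads.

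The genes and lists were chosen with earlier results of these data known. The text names all 9 genes, other rows named Ear, up to 4 called genes with the smallest p of each list, Siglecf, Il5, Ccl11, Ccl24 and Mcpt8, and the 3 nearest profiles, except a gene of the B cell list that is not reported here. Genes that came to be named otherwise were chosen after their values were seen. They are the remaining called members of a list, the tissue markers, the RNases at 0 or in 1 library and Alox15. Kit, Prss34, Ms4a2, Cd200r3, Il4, Bhlhe41 and Zbtb32 also belong to them. Gene positions are those of RefSeq on GRCm38.p6, matched by the NCBI identifiers of the table, and transcripts are those of GENCODE M21.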

Additional observations from a re-analysis of the deposited data

Results flagged for a closer look

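Of 29 values checked in the 4 sHA-X libraries, 2 had a library far from the others, where chance gives about 1 in 20. The ratio of Il5ra to Prg3 was 0.364 in sHA-X replicate 1 and 0.419 to 0.427 in the other 3, a gap of 0.884 of the group's range. Il5 was listed at 0.0195 FPKM in sHA-X replicate 3 and at 0 in the other 3, a gap of 1 times the range that rests on about 1 read.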

How the results depend on the processing

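The direction of the change was kept by all 8 tested eosinophil genes under every alternative run. With each library left out in turn, 494 to 1262 genes were higher and 232 to 641 lower, 0 to 1 and 2 to 5 of the eosinophil genes, 9 to 15 and 0 to 2 of the other eosinophil-related genes, and 0 to 1 and 1 to 3 of the Ly6C-low monocyte genes. Fits with a library left out hold fewer values. Without both second libraries 492 genes were higher and 329 lower, with 2 eosinophil genes lower, 0 other eosinophil-related genes lower, and 0 higher and 1 lower among the Ly6C-low monocyte genes. Limma without robust variance, which also called Prg2, and limma without trend each left 1 of the other eosinophil-related genes lower. The causes were not tested. With the replicate number as a block, sHA-X replicate 4 adds nothing to the contrast. That replicate block left 276 genes higher and 72 lower, 2 eosinophil genes lower, 7 other eosinophil-related genes higher and 0 lower, and 0 and 0 Ly6C-low monocyte genes. The labels give no pairing of the libraries by number. Same-numbered libraries had correlations of deviations of 0.15, -0.21 and -0.29, and 2 of 6 libraries were closest to their own number. With deviations centred within groups of 3 and 4 libraries, this check cannot exclude a pairing. Calls of Ear1, Ear6 and Epx were lost under the block. Depth limits Ear10 and Il5, at about 1 read each.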
